A study of Mus musculus with 4 samples.

Results

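The interleukin-1 (IL-1) family was examined in macrophages that lack MyD88, through the ligands Il1a, Il1b and Il18, the antagonists Il1rn and Il18bp, and the receptors Il1r1, Il1rap, Il1r2 and Il1rl1. Members were all probe sets whose only gene symbol in the platform annotation was one of these 9 genes, which gave 15 probe sets of 45037 on the array, for 8 of the 18193 genes named there. A probe set is a group of short oligonucleotide probes aimed at 1 transcript. Il1rl1, the IL-33 receptor chain, had none that named it alone and was not analysed here.

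MyD88-deficient mouse bone marrow was cultured with human recombinant M-CSF over 6 days, a factor that drives marrow precursors toward macrophages. The 2 zymosan arrays came from cells given 100 ug/ml zymosan for 120 min. The 2 unstimulated arrays came from cells of the same genotype and days of growth that received no stimulus (0 min). Whether the 2 groups came from the same culture is not stated. Zymosan is a yeast cell wall preparation rich in beta-glucan, recognised by Dectin-1 and Toll-like receptor 2. All arrays were MyD88-deficient, no wild-type array was analysed here, and separate animals or cultures within a group are not stated, so p-values measure only how far these arrays spread, perhaps for technical reasons.

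Il1a and Il1b encode the agonists of the IL-1 receptor, which Il1r1 forms together with the accessory chain Il1rap. Il1rn encodes a receptor antagonist that occupies Il1r1 without signalling, Il1r2 a decoy receptor with no signalling domain, and Il18bp a soluble protein that binds IL-18. IL-1 and IL-18 receptors signal through MyD88, so the cells studied make these ligands but lack the usual adaptor of their receptors. IL-1 beta and IL-18 are made as precursors that caspase-1 cleaves, and macrophages are known to transcribe Il1b little at rest and to induce it on contact with microbial products, while Il18 is transcribed at rest.

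The stretches before the transcription starts of the genes that rose, and of Il18 as the ligand that did not pass the test, are shown because these are the members whose transcripts the comparison separates. Each is the 250 bases before the start in RefSeq, build GRCm38.p6, read on the gene's strand. Capitals mark matches, on either strand, to the motif of AP-1 (TGANTCA) or C/EBP (TTNNGNAA). The Il1a window is chr2:129309973-129310222 (minus strand), that of Il1b chr2:129371140-129371389 (minus strand), and that of Il18 chr9:50554450-50554699 (plus strand). Il1rn has several starts, of which the most upstream has the window chr2:24336610-24336859 and the most downstream chr2:24345121-24345370 (both plus strand).
Il1a: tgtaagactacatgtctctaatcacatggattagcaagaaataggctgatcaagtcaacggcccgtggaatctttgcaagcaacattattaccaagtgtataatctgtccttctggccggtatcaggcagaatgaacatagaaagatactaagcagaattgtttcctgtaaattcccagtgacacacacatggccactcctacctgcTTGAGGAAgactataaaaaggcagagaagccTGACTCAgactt
Il1b: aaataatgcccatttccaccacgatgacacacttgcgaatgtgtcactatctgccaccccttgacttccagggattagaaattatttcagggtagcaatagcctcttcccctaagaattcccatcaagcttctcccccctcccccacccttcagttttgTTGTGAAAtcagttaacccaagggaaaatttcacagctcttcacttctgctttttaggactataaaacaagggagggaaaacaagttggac
Il1rn upstream start: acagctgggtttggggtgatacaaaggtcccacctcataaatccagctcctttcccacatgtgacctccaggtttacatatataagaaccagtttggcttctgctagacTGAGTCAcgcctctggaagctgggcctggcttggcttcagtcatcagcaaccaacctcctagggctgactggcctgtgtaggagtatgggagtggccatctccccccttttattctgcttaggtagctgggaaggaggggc
Il1rn downstream start: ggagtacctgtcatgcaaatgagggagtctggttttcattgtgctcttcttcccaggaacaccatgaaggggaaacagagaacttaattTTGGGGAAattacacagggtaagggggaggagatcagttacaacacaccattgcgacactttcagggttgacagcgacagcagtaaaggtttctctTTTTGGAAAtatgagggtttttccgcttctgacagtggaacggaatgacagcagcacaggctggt
Il18: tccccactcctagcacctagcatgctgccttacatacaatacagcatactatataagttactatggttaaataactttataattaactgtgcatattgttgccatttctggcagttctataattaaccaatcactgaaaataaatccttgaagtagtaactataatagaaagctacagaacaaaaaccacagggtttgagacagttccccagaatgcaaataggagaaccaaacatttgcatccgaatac

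AP-1 sites were found in the Il1a window, at bases -12 to -6 from the start (TGACTCA), and in the upstream Il1rn window, at bases -141 to -135 (TGAGTCA). The AP-1 motif was present in 6.75% of the 32851 promoter windows of the same length. C/EBP matches lay in the windows of Il1a, Il1b and the downstream Il1rn start, where 2 of the 3 matches overlap, and this motif was present in 36.8% of all windows. The Il1b match lay at bases -91 to -84. None of these 5 windows held the NF-kB consensus motif, the CRE motif TGACGTCA, the PU.1 motif GAGGAAGT or the EGR motif GCGNGGGCG, which were present in 7.25%, 1.55%, 2.44% and 4.7% of all windows. The matches are a description of letters within these windows and no evidence of binding.

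Zymosan-treated MyD88-deficient macrophages had higher Il1b and Il1rn transcripts, a rise of Il1a from near the bottom of the measurable range, and no difference past the threshold for Il18, Il18bp or any receptor gene. Values are log2 expression values made by the authors with RMA (robust multi-array average), 1 per probe set and array. A probe set was tested if at least 2 arrays had it at or above their 40th percentile (log2 4.36 to 4.39). Log2 differences were taken as zymosan minus unstimulated and called at an adjusted p under 0.05 in limma with Benjamini-Hochberg adjustment over all 27571 tested probe sets. Of the 15 member probe sets 11 were tested; 5 were called higher, 0 lower, and 6 were not called, where limma likewise gave 0 lower at an unadjusted p under 0.05. Among all tested probe sets 8.48% were called higher and 7.45% lower. The 5 calls are no independent count, since 3 are of Il1rn and that of Il1a passed the filter through its zymosan arrays alone. The median difference was 0.30 over the 11 tested member probe sets and -0.01 over all tested probe sets. The member median likewise counts Il1rn 3 times and includes Il1a.

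The unstimulated arrays were scanned 16 days apart, while both zymosan arrays shared a later scan day, at day 153 from the earliest, with a different operator and project name. The titles of both unstimulated arrays name other stimuli (LPS in 1, PIC in the other), although their source labels read unstimulated at 0 min. No scan day held both groups, so in every result below the stimulus cannot be told apart from scan day or operator. Across tested probe sets, the zymosan arrays differed from each other with an SD of 0.20 and the unstimulated arrays with an SD of 0.29. Of the 11 tested member probe sets 10 were higher on unstimulated 1 than on unstimulated 2, by gaps of 0.06 to 0.27 in size over all 11, against 52.3% of all tested probe sets.

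**Figure D1:**
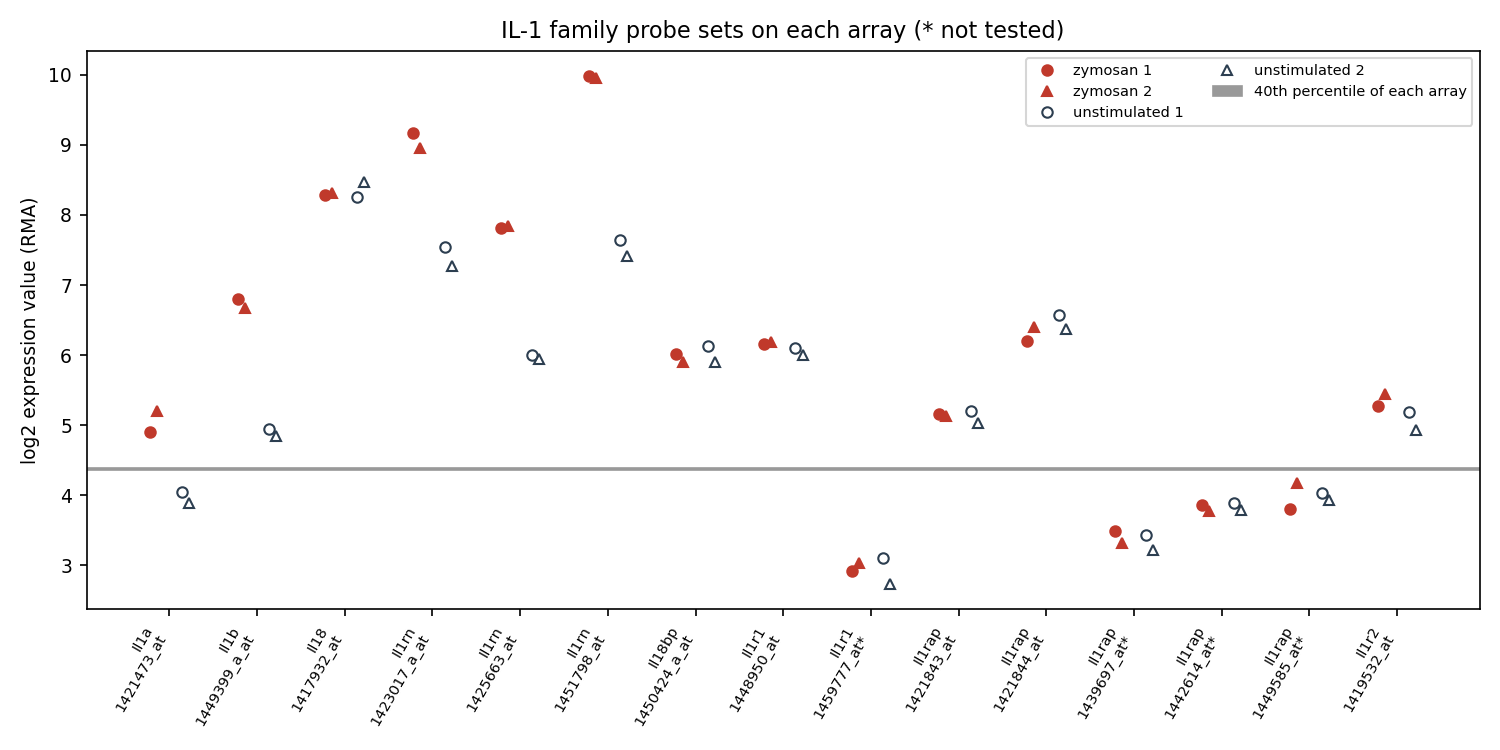
Log2 expression (RMA) of each IL-1 family probe set on each array, with zymosan arrays filled and to the left and unstimulated arrays open and to the right; the grey line is the 40th percentile of the arrays, and an asterisk marks probe sets that were not tested. Il1b and the 3 Il1rn probe sets are separated between groups well beyond the spread within a group, Il1a crosses the grey line, and the remaining probe sets lie close together.

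Il1b, the inducible agonist, had log2 values of 6.80 and 6.67 on the zymosan arrays, against 4.94 and 4.85 on the unstimulated arrays. Both zymosan arrays lay far above both unstimulated ones, and the gaps within the groups were small beside the gap between them. Il1b averaged 6.73 ± 0.09 in zymosan-treated cells and 4.89 ± 0.07 in unstimulated cells (SD, n = 2 each). The difference of 1.84 (SE 0.11) is a 3.58-fold rise with a 95% interval of 2.95 to 4.34-fold (limma adjusted p = 0.00206). The unstimulated values lay near the medians of their arrays (4.94). With 16 added to the linear values before log2 the difference was 1.42, so its size depends on how low values are treated. The probe set 1449399_a_at was the only one of Il1b.

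Il1a, the second agonist of the same receptor, had log2 values of 4.91 and 5.20 with zymosan, against 4.05 and 3.89 without. Both unstimulated arrays lay below the 40th percentile of the array, where RMA gives a value even if no transcript is present, and both zymosan arrays lay a little above it. Taking that percentile as the unstimulated level, the mean of the zymosan arrays was 1.58-fold above it. This value carries no interval. The measured means were 5.05 ± 0.20 and 3.97 ± 0.11 (zymosan and unstimulated, SD, n = 2 each), a difference of 1.08 (SE 0.14, limma adjusted p = 0.00935). The call was lost when zymosan replicate 2 was left out (difference 0.94, adjusted p = 0.0788), and the difference was 0.64 with 16 added to the linear values before log2.

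Il18, the ligand that macrophages transcribe at rest, had log2 values of 8.28 and 8.31 with zymosan and 8.26 and 8.48 without. The zymosan arrays lay between the unstimulated ones. The difference of -0.07 (SE 0.12, limma adjusted p = 0.727) has a 95% interval of -0.37 to 0.22, so a rise of the size measured for Il1b lay outside the interval. Il18 was not at the bottom of the range, since its mean exceeded that of 86.1% of probe sets.

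Il1rn, the receptor antagonist, was measured by 3 probe sets, and all 3 rose. At 1451798_at it had log2 values of 9.98 and 9.96 with zymosan, against 7.64 and 7.41 without. The zymosan arrays there differed by far less than the unstimulated ones. This is a 5.44-fold rise with a 95% interval of 4.40 to 6.72-fold (difference 2.44, SE 0.12, limma adjusted p = 0.00136).

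At 1425663_at, Il1rn had 7.82 and 7.85 with zymosan, against 6.00 and 5.94 without, a 3.63-fold rise (difference 1.86, SE 0.10, limma adjusted p = 0.00184). At 1423017_a_at it had 9.16 and 8.95 with zymosan, against 7.54 and 7.27 without, a 3.14-fold rise (difference 1.65, SE 0.14, limma adjusted p = 0.00392). No zymosan array overlapped an unstimulated array at any of the 3 probe sets. They share a gene and their target sequences may overlap, so they are not independent measurements. The 95% interval at 1451798_at (2.14 to 2.75) did not overlap those at 1425663_at (1.60 to 2.11) or 1423017_a_at (1.30 to 2.01); the difference between probe sets was not tested.

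The changes of antagonist and agonist were compared within each array, with the Il1rn probe sets averaged. The Il1rn mean minus the Il1b value was 2.19 and 2.25 on the zymosan arrays, against 2.12 and 2.03 on the unstimulated arrays. These values carry no meaning as levels, because probe sets differ in their response, but their shift compares the changes. The zymosan arrays were higher by 0.14 on the log2 scale, with no overlap of the groups (exact permutation test, 2-sided, p = 0.33, the smallest that 2 arrays against 2 can give). With the Il1rn probe set of highest mean in place of the average the shift was 0.60, and with 16 added to the linear values before log2 it was 0.43, so its size depends on the choice of probe set and on how low values are treated.

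**Figure D2:**
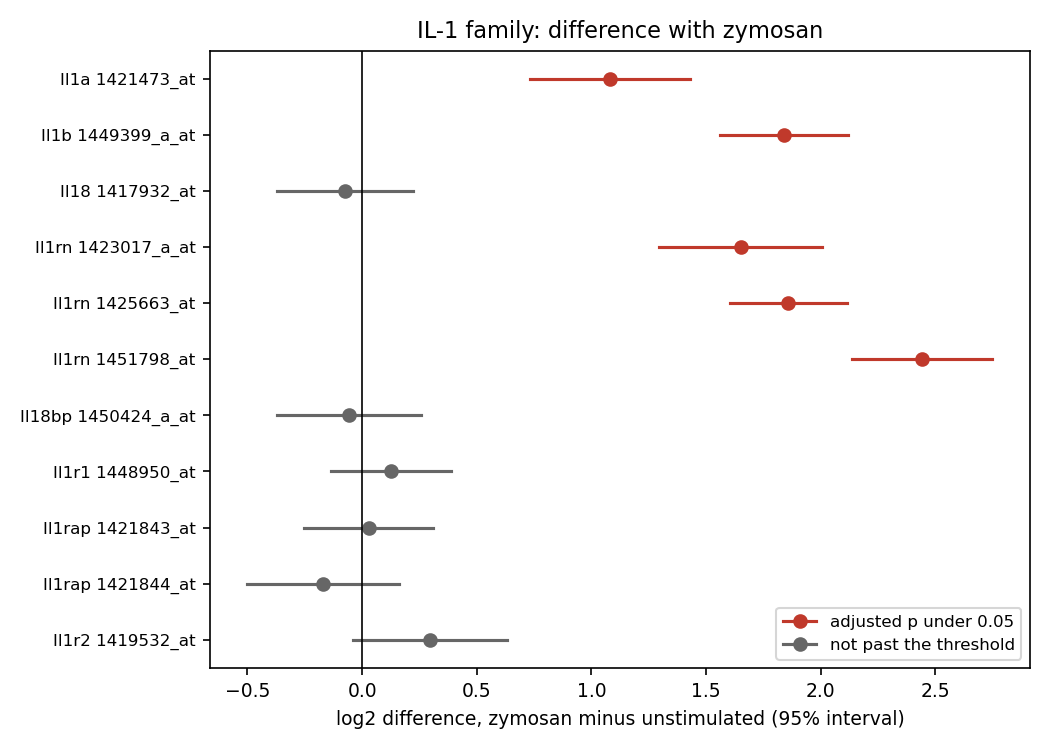
Log2 difference, zymosan minus unstimulated, for the 11 tested IL-1 family probe sets, with limma's 95% interval as the bar; red marks an adjusted p under 0.05. The called probe sets run from 1.08 (Il1a) to 2.44 (Il1rn), and the intervals of all others cover 0.

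Il18bp, which encodes the soluble inhibitor of IL-18, had log2 values of 6.02 and 5.90 with zymosan and 6.13 and 5.91 without. The groups overlapped, and the difference was -0.06 (SE 0.13, 95% interval -0.37 to 0.26, limma adjusted p = 0.804). The antagonists of the family thus had unlike differences, with all Il1rn intervals above the Il18bp interval; this contrast between genes was not tested.

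The receptor genes did not pass the test. Il1r1, the signalling receptor of IL-1, had 6.17 and 6.19 with zymosan and 6.10 and 6.00 without at 1448950_at. The zymosan arrays were both higher, but the difference of 0.13 (SE 0.11, 95% interval -0.14 to 0.39, limma adjusted p = 0.479) has an interval that covers 0. Its other probe set, 1459777_at, lay at 2.74 to 3.11 on all 4 arrays, below the filter.

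Il1rap, the accessory chain shared by the receptors of IL-1 and IL-33, had 5 probe sets, of which 3 were below the filter on every array. At 1421844_at it had 6.20 and 6.41 with zymosan and 6.58 and 6.37 without, a difference of -0.17 (SE 0.13, 95% interval -0.50 to 0.16, limma adjusted p = 0.443). At 1421843_at it had 5.16 and 5.13 with zymosan and 5.20 and 5.03 without, a difference of 0.03 (SE 0.11, 95% interval -0.25 to 0.31, limma adjusted p = 0.896). The groups overlapped at both. The 4 member probe sets below the filter, 3 of Il1rap and 1 of Il1r1, held values of 2.74 to 4.17.

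Il1r2, the decoy receptor, had 5.28 and 5.44 with zymosan, against 5.19 and 4.94 without. Both zymosan arrays were above both unstimulated arrays, by less than the gap within the unstimulated pair. The difference was 0.30 (SE 0.14, 95% interval -0.04 to 0.63, limma adjusted p = 0.203). In all, 7 of the 11 tested member probe sets had both zymosan arrays above both unstimulated arrays and 0 had them below. The 7 are no independent count. They include all 3 of Il1rn and that of Il1a, which was tested through its zymosan arrays alone. Among all tested probe sets the shares with both zymosan arrays above and below were 30.4% and 30.2%.

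The gene lists that follow were chosen with earlier results of these data known, so their counts are a description and no test. Each takes 1 tested probe set per gene. Over all 13222 genes taken so, 8.36% were called higher and 5.64% lower in the same fit. Other IL-1 family genes gave few measurements. Of 12 further ligands and receptors, 4 had a tested probe set, 4 were below the filter, and 4 had none that named them alone. The ligand Il33 and the receptor chain Il18r1 were below the filter on all arrays. Il18rap, the accessory chain of the IL-18 receptor, had 5.71 and 5.84 with zymosan, against 6.52 and 6.23 without, and fell by 0.60 (SE 0.14, limma adjusted p = 0.0416). This call did not recur at its other probe set (difference -0.17, adjusted p = 0.341), and it was lost without zymosan replicate 1, zymosan replicate 2 or unstimulated replicate 1 (adjusted p = 0.0755 to 0.224) and with no filter (adjusted p = 0.0531). Il1rl2, the IL-36 receptor (-0.27, adjusted p = 0.15), Il1f10 (-0.20, adjusted p = 0.272) and the inhibitory receptor Sigirr (-0.17, adjusted p = 0.408) did not pass limma's test, which called 0 of the 4 higher (0 at an unadjusted p under 0.05).

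Of 28 genes of the inflammasome and of IL-1 processing, 23 were tested, 5 rose and 1 fell, against 8.36% higher and 5.64% lower over all genes, with a median difference of 0.13. The genes that rose were the serine proteases of granules Prtn3 (4.15-fold, limma adjusted p = 0.00212), Ctsg (3.03-fold) and Elane (2.16-fold), the protease inhibitor Serpinb1a (8.78-fold) and Malt1, the paracaspase downstream of Dectin-1 (2.54-fold, adjusted p = 0.00646). Malt1 rose at all 3 of its probe sets, by 1.35, 1.67 and 2.23 on the log2 scale. Serpinb1a had 8.75 and 8.91 with zymosan, against 6.19 and 5.19 without, so its unstimulated arrays stood apart, and its other probe set did not pass the test (1.52, adjusted p = 0.0584). Gsdmd, which encodes the pore-forming gasdermin D, had 8.42 and 8.29 with zymosan, against 8.96 and 8.80 without, and fell by 0.53 (SE 0.12, limma adjusted p = 0.038). The Gsdmd call was lost without unstimulated replicate 1 (adjusted p = 0.0771), zymosan replicate 1 (0.15) or zymosan replicate 2 (0.238).

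The sensor Nlrp3, the adaptor Pycard and the protease Casp1 are named here for their role, after their values were seen. Nlrp3 had 8.83 and 8.94 with zymosan and 8.61 and 8.90 without (difference 0.13, SE 0.14, limma adjusted p = 0.585). Pycard differed by 0.08 (adjusted p = 0.69) and Casp1 by 0.12 (adjusted p = 0.644). None of the 3 passed the test. Naip6, which encodes a sensor of the same list and is also named after its values were seen, had 7.48 and 7.43 with zymosan, against 5.40 and 6.89 without (difference 1.31, SE 0.45, limma adjusted p = 0.113). Its unstimulated arrays stood far apart, and leaving out either made it a call, at 0.56 with replicate 1 of them gone (adjusted p = 0.0367) and at 2.05 with replicate 2 gone (adjusted p = 0.00238). Fewer genes of the list were called higher when either zymosan array was left out, which leaves 1 array in that group. Calls over all probe sets fell there too, so the losses cannot be read as specific to these genes. Elane, no longer called without zymosan replicate 1, still differed by 0.97 there, against 1.11 with all arrays. Without zymosan replicate 2, Serpinb1a, Malt1 and Ctsg were no longer called. They differed there by 3.05, 1.16 and 1.37, against 3.13, 1.35 and 1.60 with all arrays. Malt1 was read there only at its probe set of highest mean, not at the one that rose by 2.23. Prtn3 was called in all settings run.

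Of 29 genes of IL-1 receptor signalling, 25 were tested, 3 rose and 1 fell, with a median difference of 0.05. These counts lie near the 8.36% higher and 5.64% lower over all genes, so they are not a result about this list. Irak2, a kinase of the MyD88 complex, had 8.87 and 8.69 with zymosan, against 7.50 and 7.60 without, a rise by 1.23 on the log2 scale (SE 0.12, limma adjusted p = 0.00474). Nfkbia, the NF-kB inhibitor, rose by 0.72 at the probe set of highest mean and by 1.29 to 1.56 at its other 4. Tollip, an adaptor that binds IL-1 receptor complexes, rose by 0.73 (adjusted p = 0.0118) at the probe set of highest mean and differed by -0.64 at another (adjusted p = 0.0747). Mapk14, the p38 alpha kinase, fell by 0.63 (adjusted p = 0.0277), and its other probe sets differed by -2.11 to -0.03. Mapk8, the JNK1 kinase, differed by 0.38 (adjusted p = 0.0742). Myd88 itself had 8.37 and 8.40 with zymosan, against 8.72 and 8.78 without (-0.37, adjusted p = 0.0673). Where its probes lie relative to the deleted part is not known here, so these values check no label. Irak2 was called in all settings run. Settings were read only at each gene's probe set of highest mean. The other 4 of Nfkbia (limma adjusted p = 0.0025 to 0.00647 with all arrays) were not read there. Tollip and Nfkbia were no longer called without zymosan replicate 1 (adjusted p = 0.0913 and 0.127) or zymosan replicate 2 (0.112 and 0.104), nor was Mapk14 without either of these (0.168 and 0.162) or without unstimulated replicate 2 (0.0516).

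**Figure D3:**
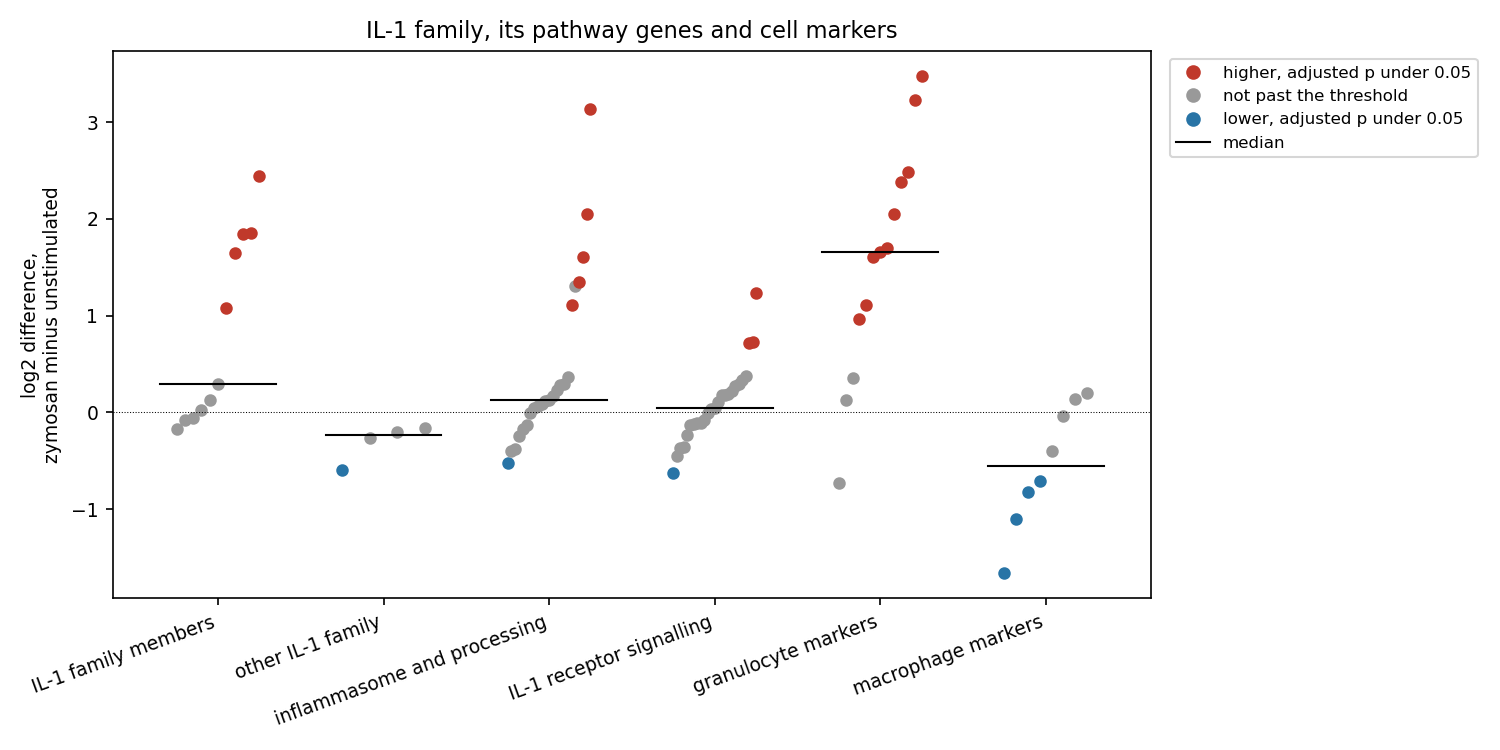
Log2 difference, zymosan minus unstimulated, for the tested IL-1 family probe sets and, 1 probe set per gene, for the other IL-1 family, inflammasome and processing, receptor signalling, granulocyte marker and macrophage marker genes; colours give the test's call and the black line the median. Most pathway genes lie near 0, while the granulocyte markers have a median of 1.65 and the macrophage markers one of -0.55.

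Markers of granulocytes and their precursors, cells that also transcribe Il1b, Il1rn and Il1r2, moved with the groups. Of 16 markers 13 were tested, and 10 rose, 0 fell and 3 did not pass limma's test, against 8.36% higher over all genes. The median difference of the 13 was 1.65. This list too was chosen with earlier results of these data known, so its counts are a description. With scan day as a random block 9 rose, and 741 of all 27571 tested probe sets were then called higher. Fewer rose when either zymosan array was left out, which leaves 1 array in that group. Calls over all probe sets fell there too. Of the 3 not called, Mmp9 was lower (-0.73) and Ltf higher (0.36) at an unadjusted p under 0.05 in limma. Without unstimulated replicate 1 Mmp9 differed by -1.14. The summed linear level of the granulocyte list was 5315 and 5513 on the zymosan arrays, against 1290 and 1382 on the unstimulated arrays. S100a8 and S100a9 weigh most in it. Probe sets differ in their response, so such sums are no measure of cell number. Mpo, a granule enzyme of precursors, had 7.76 and 7.77 with zymosan, against 4.53 and 4.53 without. Genes of later granulocyte stages in the list rose too, among them Mmp8 by 3.48, S100a8 by 2.49, S100a9 by 2.38, Lcn2 by 1.70, Ngp by 1.65 and Camp by 0.97 on the log2 scale, while Ltf differed by 0.36 (limma adjusted p = 0.108). Camp was no longer called without zymosan replicate 1 or 2 (adjusted p = 0.0564 and 0.11), nor was Mmp8 without zymosan replicate 2 (0.054). The chemokine receptor Cxcr2, a defining marker of mature neutrophils, was below the filter on all 4 arrays (4.06 to 4.16), and Csf3r differed by 0.13 (adjusted p = 0.555). Elane, Prtn3 and Ctsg stand in both this list and the processing list above. The part of these cells in the rises of Il1b, Il1a and Il1rn was not tested, and in whole-culture RNA more cells of a type and more RNA per cell cannot be told apart.

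Macrophage markers were present on all arrays, with Lyz2 at 14.03 and 14.04 with zymosan and 14.03 and 14.11 without, and Csf1r, the M-CSF receptor, at 12.90 and 12.89 with zymosan and 13.28 and 13.31 without. Of 8 such markers 4 fell (Adgre1, Fcgr1, Itgam and Cd14), by 0.70 to 1.66, against 5.64% lower over all genes, and 4 did not pass the test. With scan day as a random block 2 of the 8 were called lower, without Adgre1 (limma adjusted p = 0.0521) and Cd14 (0.0563). Of all 27571 tested probe sets 647 were then called lower. Mertk differed by 0.14 (adjusted p = 0.807) with unstimulated arrays far apart, and was called higher without unstimulated replicate 2 (0.64, adjusted p = 0.0274). Itgam was called in all settings run, while Adgre1, Cd14 and, without zymosan replicate 2, Fcgr1 were no longer called when a zymosan array was left out (adjusted p = 0.0643 to 0.125). Of 12 mast cell and basophil markers 3 were tested and limma called 0 in either direction, also at an unadjusted p under 0.05; Cpa3 and Fcer1a were below the filter on every array. The summed level of that list was 245 and 253 with zymosan and 263 and 233 without. The lists for T, NK and innate lymphoid cells, dendritic cells, and fibroblasts and endothelium had 5, 4 and 3 tested genes with 0 called by limma, of which 1 (Col1a2, -0.34) was lower at an unadjusted p under 0.05. In the first of these lists, Il7r had 10.77 and 10.66 with zymosan, against 10.80 and 9.34 without (0.65, limma adjusted p = 0.383). Its unstimulated arrays thus stood far apart. The summed level of that first list was 1992 and 1876 with zymosan and 2040 and 915 without. Of 3 tested B cell markers 1 fell (Cd79b, by 0.58), a call lost without zymosan replicate 1 or 2 (adjusted p = 0.126 and 0.168).

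The genes whose profile over the 4 arrays lay closest to those of Il1b and Il1rn were found by the Euclidean distance between log2 values centred on each gene's mean. For Il1b they were the NF-kB inhibitor gene Nfkbie (distance 0.02), the ubiquitin ligase gene Trim13 (0.06) and the NF-kB cofactor gene Bcl3 (0.12). Nfkbie had 9.63 and 9.50 with zymosan, against 7.77 and 7.65 without, so its arrays kept the same order as those of Il1b within each group. For Il1rn at 1451798_at they were Cd28 (0.18), the metalloprotease gene Adamts1 (0.19) and Fbxo30 (0.19). Adamts1 and Fbxo30 were below the 40th percentile on both unstimulated arrays and were tested through their zymosan arrays alone, so their distances and their place in this order rest in part on values at the bottom of the range. For Il18 the nearest were Plekhh1, Atp2c1 and Ccdc28b, at distances of 0.01 to 0.02, with differences of -0.08 to -0.07. With 4 arrays in 2 groups such likeness is a description of size and spread only.

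**Figure D4:**
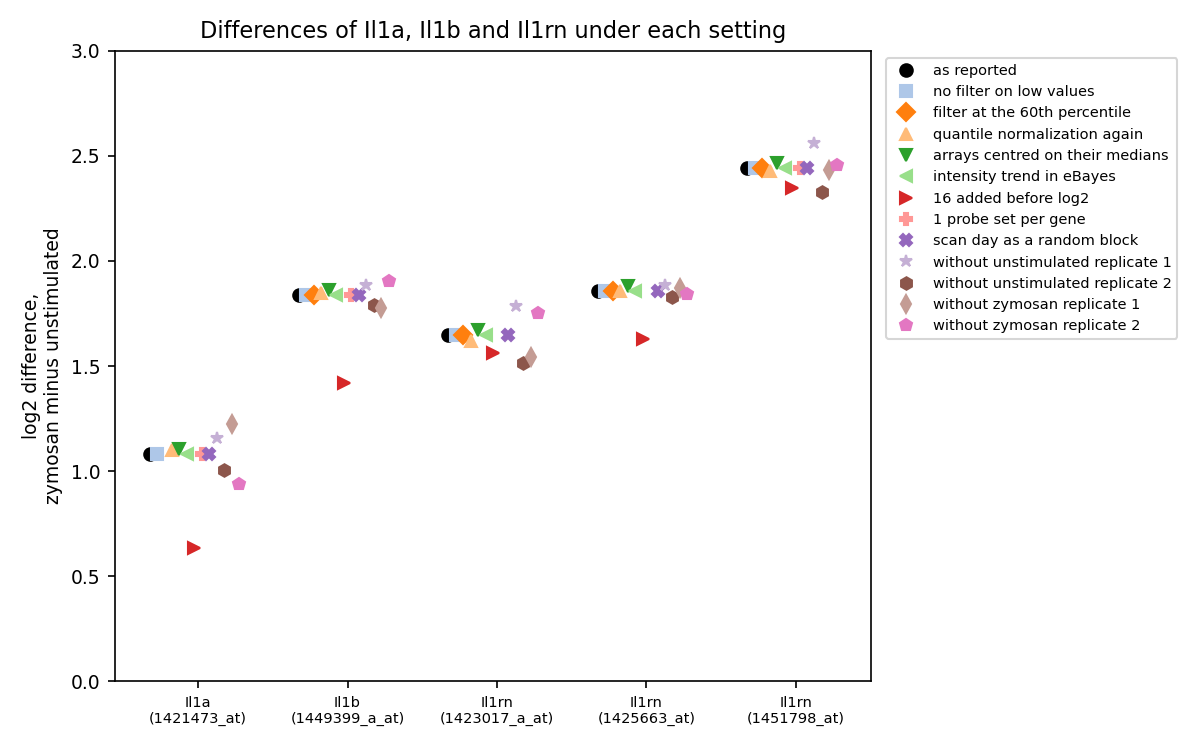
Log2 difference, zymosan minus unstimulated, of the 5 called IL-1 family probe sets as reported (black) and under each alternative setting (colours and shapes). Il1b stayed between 1.42 and 1.91, the Il1rn probe set 1451798_at between 2.33 and 2.56, and Il1a between 0.64 and 1.23.

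Il1b and all 3 Il1rn probe sets kept their call in every alternative in which they were tested. When scan day entered as a random block (added after seeing the data), limma's adjusted p was 0.00794 for Il1b and 0.00479 to 0.0155 for Il1rn. It was 0.0445 for Il1a, which passed the filter through its zymosan arrays alone. This block left every difference unchanged and altered only its error. Because no scan day held both groups, it cannot remove an effect of scan day from the differences. Leaving out zymosan replicate 1 or 2 cut the calls among all probe sets to 354 and 231 higher, against 2339 with all arrays, and Il1b and the 3 Il1rn probe sets were still called.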

How the data were processed

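RNA from 4 samples was hybridised to Affymetrix Mouse430_2 arrays, per the file headers of the scanner settings, after biotin labelling of cRNA made from 4 ug total RNA, per the labels' protocols. The deposited values are log2 expression values that the authors made with RMA, per the submitters' processing notes; its version, and which arrays it normalised together, is not given in the sources used here. RMA corrects background, equalises array distributions and summarises probes, which compresses differences of low transcripts. The scanner settings files, deposited as other text, were used for chip type, scan day, operator and project.

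Of 45101 probe sets, 64 controls were set aside. Of the rest 34945 had 1 symbol in the platform annotation, 932 several and 9160 none, and a check of symbols against RefSeq changed 0 of them. Probe sets at the 40th percentile in at least 2 arrays were kept (27571). The fit used lmFit and eBayes of limma 3.58.1 in R 4.3.3, 2-sided; all adjusted p-values of single probe sets come from it, SE is its moderated error, and it was tested on simulated data. Array medians were 4.92 to 4.94, so no further scaling was applied. The 4 arrays limit precision.

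Members, lists and motifs were chosen with earlier results of these data known. From each pathway list the text names called genes and up to 6 of smallest p; each gene is represented by its tested probe set of highest mean. Motifs were searched in RefSeq promoter windows. Alternatives changed the filter, scaling, variance model, offset, features and arrays.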

Additional observations from a re-analysis of the deposited data

How the results depend on the processing

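Of the alternative values for the tested IL-1 family probe sets, 121 of 126 kept their direction and their side of the threshold. The exceptions were Il1a without zymosan replicate 2 (0.94, adjusted p = 0.0788 in limma) and 3 probe sets near 0 that changed sign without passing the test. With each array left out in turn, Il18 ran from -0.18 to 0.033, Il18bp from -0.17 to 0.054 and Il1rap at 1421843_at from -0.053 to 0.11. Refitted with 1 probe set per gene, 3 members were called higher, because Il1rn then counts once, and calls over all genes were 1335 higher and 890 lower. With scan day as a random block, all probe sets called were 741 higher and 647 lower, and 5 members were higher. Limma's duplicateCorrelation gives no correlation for 4 arrays, so a value of 0.54 was used. It is 1 minus the ratio of the mean variance within the zymosan pair to that within the unstimulated pair. This assumes that the wider spread of the unstimulated pair is due to scan day, which was not tested. Leaving out each array in turn gave 231 to 2531 probe sets higher, 157 to 2280 lower and 4 to 5 member probe sets higher, and an Il1rn shift beyond Il1b of 0.10 to 0.19. For the 48 other named genes, 512 of 568 alternative values kept their direction and their side of the threshold, 36 lost a call, 12 gained one (Csf1r lower at adjusted p = 0.00931 to 0.0486, Myd88 lower at 0.0401 to 0.0485, Mmp9, Naip6 and Mertk) and 8 changed sign. The calls of Il18rap (adjusted p = 0.128), Gsdmd (0.133), Nfkbia (0.0694), Mapk14 (0.0906), Adgre1 (0.0521), Cd14 (0.0563), Camp (0.0627) and Cd79b (0.0816) were lost with scan day as a random block. The sign changes were of genes not called with all arrays: with each array left out in turn, Mertk ran from -0.36 to 0.64, Nlrp3 from -0.020 to 0.28, Pycard from -0.021 to 0.19, Casp1 from -0.046 to 0.28, Lyz2 from -0.080 to 0.0071, Plekhh1 from -0.18 to 0.046, Atp2c1 from -0.20 to 0.029 and Ccdc28b from -0.18 to 0.029. At the 60th percentile filter Il1a and Il1r2 were not tested. No paired analysis was possible because the labels give the arrays no shared replicate numbers. Signal near the bottom of the range limits Il1a, and low unstimulated signal limits the size given for Il1b.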
